A study of Marchantia polymorpha with 9 samples.

Results

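Magnesium chelatase inserts magnesium into protoporphyrin IX and so commits this porphyrin to chlorophyll, whereas ferrochelatase inserts iron into the same porphyrin and commits it to haem. In plants the enzyme has a large porphyrin-binding subunit, CHLH, and the subunits CHLI and CHLD, which belong to the AAA+ family of ATPases and form the complex that drives the insertion. GUN4 binds porphyrins and stimulates the enzyme, and in Arabidopsis both GUN4 and CHLH (GUN5) were named from mutants in which nuclear genes for photosynthesis stayed active after plastid damage.

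Transcript levels of 3 genes were examined in the liverwort Marchantia polymorpha. They were MpCHLI1/2-like (Mp2g21150), MpCHLD (Mp6g04260) and MpGUN4 (Mp6g06740), chosen by locus name among the 20574 genes of the deposited tables. The samples were whole thallus plants, 3 weeks old, of the mutant Mpb-gata1-1, the mutant Mpb-gata1-2 and the wild type BoGa, with 3 RNA sequencing libraries per group and 3 plants pooled per library. They had grown untreated on 1/2 Gamborg's B5 medium at 22 °C, with days of 16 h of light, of 40 µmol m-2 s-1 intensity, and 8 h of dark. The labels do not describe the lesions or how many lines stand behind each mutant name. In flowering plants, GATA transcription factors of the B class promote greening.

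Depth was 24823337 to 44133919 reads assigned to genes in a library, and 98.2 to 98.3% of them were unique to a gene. MpGATA4, which is treated as the B-GATA1 gene on outside knowledge only, stood at 252 ± 5.07 CPM in Mpb-gata1-1 plants and 283 ± 3.64 CPM in Mpb-gata1-2 plants, against 151 ± 3.37 CPM in BoGa (SD, n = 3). The 3 groups did not overlap, and the gene was higher in the mutants, so these levels do not show a loss of its transcript. CPM are read counts scaled to library size with TMM factors. The groups also differed in the male sex chromosome V, measured over 22 V genes as a median, with the Mpb-gata1-2 mean of each gene set to 1. This V level was 0.0172 to 0.0253 in Mpb-gata1-1 libraries and 0.946 to 1.03 in Mpb-gata1-2 libraries, against 0.368, 0.533 and 0.682 in BoGa replicates 1, 2 and 3. Of the marker lists of thallus structures, the gemma cup genes (4 genes) summed to 102 to 108 CPM in Mpb-gata1-1 libraries and 123 to 130.1 CPM in Mpb-gata1-2 libraries, against 78.0 to 100.2 CPM in BoGa. Among them, MpGCAM1, a regulator of gemma cup formation, averaged 15.3 ± 3.70 CPM in Mpb-gata1-1 plants and 25.6 ± 3.91 CPM in Mpb-gata1-2 plants, against 5.15 ± 0.639 CPM in BoGa (SD, n = 3; log2 changes 1.56 and 2.31; edgeR adjusted p = 0.000123 and 8.67e-06). MpCLE2 had log2 changes of -0.28 and -0.40 (adjusted p = 0.00661 and 0.000981). The rhizoid genes (2 genes) summed to 30.7 to 37.9 and 29.0 to 33.7 CPM in Mpb-gata1-1 and Mpb-gata1-2, against 26.5 to 28.4 CPM in BoGa. Nearly all of this sum was MpBHLH14, with means of 33.4 and 30.9 CPM in the mutants, against 26.5 CPM in BoGa. MpFRH1 averaged 0.778 and 0.657 CPM, against 0.683 CPM in BoGa. The oil body cell genes (4 genes) summed to 25.6 to 30.3 and 27.1 to 28.8 CPM in these mutants, against 23.7 to 29.9 CPM in BoGa, and the air chamber gene MpNOP1 stood at 85.6 to 95.5 and 84.9 to 91.5 CPM, against 84.0 to 102 CPM. None of these markers was at 0 in a library. The markers fixed for the sexual branch matched no symbol, and RSL1 (rhizoid) and MYB02 (oil body cells) were not matched either. The part of the marker genes in the results below was not tested.

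All 3 genes were lower in both mutants. MpCHLI1/2-like was 23.5% lower in Mpb-gata1-1 and 27.7% lower in Mpb-gata1-2 than in BoGa, MpCHLD 22.3% and 23.8% lower, and MpGUN4 28.5% and 33.5% lower. Each gene was called lower in both mutants (3 of 3), that is, at an adjusted p under 0.05 in edgeR's quasi-likelihood test with Benjamini-Hochberg adjustment over all 14667 tested genes. Among all tested genes, 23% were called lower in Mpb-gata1-1, 24.7% in Mpb-gata1-2 and 14% in both mutants. All 6 mutant libraries lay below all 3 BoGa libraries for each of the 3 genes, as they did for 16.3% of all tested genes. Both comparisons share the BoGa libraries. The mutants did not differ detectably from each other at any of the 3 genes. In whole plants, fewer cells of a type and less RNA per cell cannot be told apart.

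MpCHLI1/2-like, named for the ATPase subunit CHLI, lies on chromosome 2 at 23327580 to 23330690, plus strand, in the coordinates of the deposited tables. Its level was 312, 301 and 323 CPM in Mpb-gata1-1 libraries and 299, 298 and 288 CPM in Mpb-gata1-2, against 393, 410.1 and 421 CPM in BoGa. All 6 mutant libraries lay below the lowest BoGa library, and the 3 Mpb-gata1-2 libraries lay below the 3 Mpb-gata1-1 libraries, as for 25.2% of all tested genes. Group means were 312 ± 11.3 and 295 ± 6.26 CPM in Mpb-gata1-1 and Mpb-gata1-2, against 408 ± 14.1 CPM in BoGa (SD, n = 3). The log2 change was -0.39 ± 0.052 (SE; 95% interval -0.50 to -0.27; edgeR adjusted p = 0.000215) in Mpb-gata1-1 and -0.47 ± 0.052 (-0.58 to -0.35; adjusted p = 5.92e-05) in Mpb-gata1-2.

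MpCHLD, the other ATPase subunit, lies on chromosome 6 at 4660781 to 4669120, minus strand. Its level was 111.2, 111.1 and 111.7 CPM in Mpb-gata1-1 libraries and 106, 111.2 and 110.4 CPM in Mpb-gata1-2, against 132, 142 and 155 CPM in BoGa. The mutant libraries lay close together and all below BoGa, and the spread was widest in BoGa, with an SD of 0.316 CPM in Mpb-gata1-1, 2.90 CPM in Mpb-gata1-2 and 11.7 CPM in BoGa. The log2 change was -0.36 ± 0.062 (SE; 95% interval -0.50 to -0.23; edgeR adjusted p = 0.000876) in Mpb-gata1-1 and -0.39 ± 0.062 (-0.53 to -0.26; adjusted p = 0.000538) in Mpb-gata1-2.

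MpGUN4, the activator, lies on the same chromosome at 7373175 to 7376472, plus strand. Its level was 105, 87.4 and 86.1 CPM in Mpb-gata1-1 libraries and 79.5, 93.6 and 85.5 CPM in Mpb-gata1-2, against 127, 137 and 125 CPM in BoGa. Mpb-gata1-1 replicate 1 was the highest mutant library and still lay below all 3 BoGa libraries. Group means were 92.8 ± 10.4 and 86.2 ± 7.08 CPM in the mutants, in the same order, against 130 ± 6.31 CPM in BoGa (SD, n = 3). The log2 change was -0.48 ± 0.086 (SE; 95% interval -0.67 to -0.30; edgeR adjusted p = 0.00112) in Mpb-gata1-1 and -0.59 ± 0.086 (-0.78 to -0.40; adjusted p = 0.00034) in Mpb-gata1-2.

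**Figure D1:**
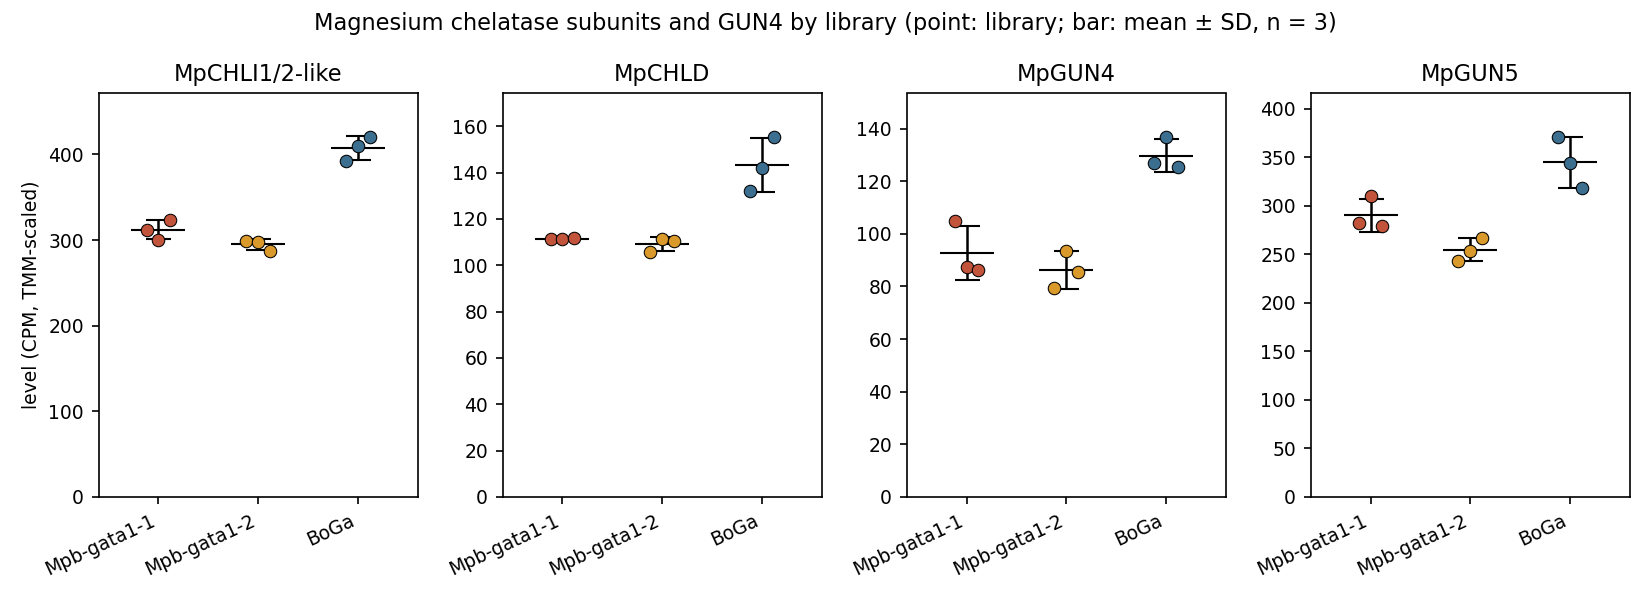
Levels of MpCHLI1/2-like, MpCHLD, MpGUN4 and MpGUN5 (CPM, TMM-scaled, linear axes from 0) in the 3 libraries of Mpb-gata1-1, Mpb-gata1-2 and BoGa. Points are libraries and bars are means ± SD (n = 3); for each gene the 6 mutant libraries lie below the 3 BoGa libraries.

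The mean of both mutants differed from BoGa by a log2 change of -0.43 ± 0.045 for MpCHLI1/2-like (SE; edgeR adjusted p = 3.34e-05), -0.38 ± 0.053 for MpCHLD (adjusted p = 0.000215) and -0.54 ± 0.073 for MpGUN4 (adjusted p = 0.000183). In this comparison 26.1% of all tested genes were called lower and 22.7% higher. With the V level as a covariate the log2 changes were -0.42, -0.36 and -0.54 for MpCHLI1/2-like, MpCHLD and MpGUN4, and all 3 were called. The V levels of the mutants lie on either side of BoGa, so this covariate can do little to their mean whatever the part of V. A part of V in either mutant alone was not tested. In BoGa the library with the highest V level, replicate 3, also had the highest MpCHLI1/2-like and MpCHLD levels, and the lowest MpGUN4 level.

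Mpb-gata1-2 minus Mpb-gata1-1 gave a log2 difference of -0.08 for MpCHLI1/2-like (95% interval -0.20 to 0.03; edgeR adjusted p = 0.272). For MpCHLD it was -0.03 (-0.16 to 0.11; adjusted p = 0.764), and for MpGUN4 -0.10 (-0.29 to 0.09; adjusted p = 0.397). None of the 3 was called (0 of 3), also at an unadjusted p under 0.05, with DESeq2 or with limma, where 30.9% of all tested genes were called in either direction and 16% lower. The intervals leave room for a further decrease in Mpb-gata1-2 that is widest for MpGUN4.

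Set against all tested genes, the changes were of moderate size. In Mpb-gata1-1, 18.3% of tested genes had a lower log2 change than MpCHLI1/2-like, 19.5% a lower one than MpCHLD and 14.2% a lower one than MpGUN4. In Mpb-gata1-2 these shares were 15.9%, 19.2% and 12.2%. The median log2 change of the genes called lower was -0.51 for Mpb-gata1-1 and -0.52 for Mpb-gata1-2, and that of all tested genes was 0.00 and -0.02. Replicate spread was small at these genes, with a fitted biological coefficient of variation of 5.47% for MpCHLI1/2-like, 6.02% for MpCHLD and 7.80% for MpGUN4, against 9.08% in common for all tested genes.

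**Figure D2:**
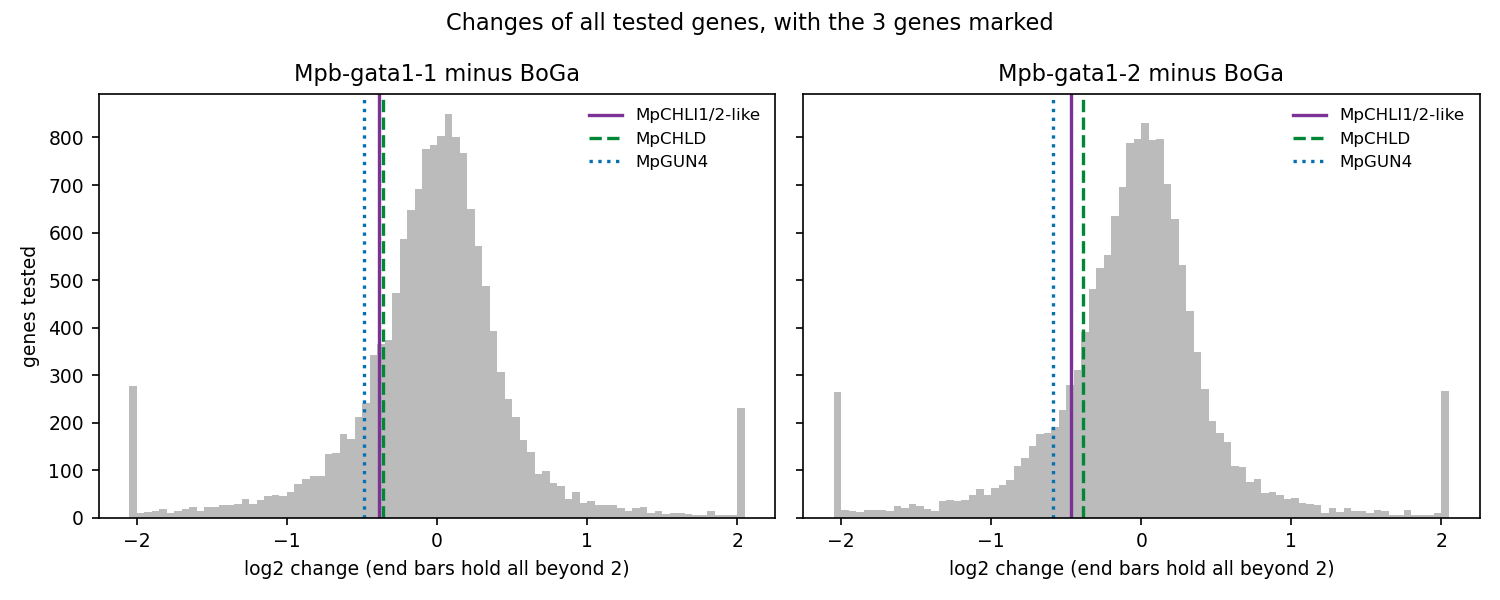
Distribution of the log2 change of all tested genes in Mpb-gata1-1 (left) and Mpb-gata1-2 (right) against BoGa; grey bars count genes, and the end bars hold all genes beyond a change of 2. The vertical lines mark MpCHLI1/2-like, MpCHLD and MpGUN4, which lie on the lower shoulder of each distribution and not in its tail.

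Levels between genes were compared per length, as the RPKM of the deposited tables, where the length is that of the full gene region, introns included. In BoGa MpCHLI1/2-like averaged 125 RPKM, MpGUN5, named for the porphyrin-binding subunit CHLH, 49.7 RPKM, MpGUN4 37.6 RPKM and MpCHLD 16.4 RPKM. This order held in 9 of 9 libraries. By mean TPM over all libraries, MpCHLI1/2-like lay above 96.9% of tested genes, MpGUN4 above 87.9% and MpCHLD above 73.0%.

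The read ratios between the 3 genes within a library do not depend on how libraries are scaled. MpCHLI1/2-like had 2.80 ± 0.0939 reads per MpCHLD read in Mpb-gata1-1 and 2.70 ± 0.112 in Mpb-gata1-2, against 2.86 ± 0.136 in BoGa (SD, n = 3). MpGUN4 had 0.833 ± 0.0942 and 0.789 ± 0.0470 reads per MpCHLD read in the mutants, in the same order, against 0.910 ± 0.0897 in BoGa. MpGUN4 per MpCHLI1/2-like read stood at 0.298 ± 0.0350 and 0.292 ± 0.0244, against 0.318 ± 0.0184 in BoGa. For each pair the mutant and BoGa libraries overlapped. The differences between the 6 mutant and 3 BoGa libraries were -0.05, -0.17 and -0.11 on the log2 scale (exact permutation test, two-sided, p = 0.262, 0.119 and 0.238; adjusted p = 0.262 for each of the 3 pairs; the smallest p this design allows is 0.0238). Unequal decreases of the 3 genes were thus not detectable here.

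MpGUN5 (Mp8g10280) changed in the same direction as the 3 genes. Its level was 282, 309 and 279 CPM in Mpb-gata1-1 libraries and 243, 254 and 267 CPM in Mpb-gata1-2, against 371, 344 and 318 CPM in BoGa. All mutant libraries lay below BoGa, by the narrowest margin in Mpb-gata1-1. The log2 change was -0.44 ± 0.070 in Mpb-gata1-2 (SE; edgeR adjusted p = 0.000627) and -0.25 ± 0.070 in Mpb-gata1-1 (adjusted p = 0.0150). The call in Mpb-gata1-1 was lost without BoGa replicate 1 (adjusted p = 0.0546), or without replicate 1 (0.0502) or 3 (0.0651) of Mpb-gata1-1, and with limma on log2(TPM + 1), where the change was -0.15 (adjusted p = 0.155). Mpb-gata1-2 minus Mpb-gata1-1 was -0.19 (95% interval -0.34 to -0.03; edgeR adjusted p = 0.0656), and it was called without BoGa replicate 1 (adjusted p = 0.0478) or BoGa replicate 3 (0.0219).

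The lists of tetrapyrrole genes held 7 genes with a symbol, all tested, of which 3 belong to the iron branch. Of the 7, 5 were called lower in Mpb-gata1-1 and 6 in Mpb-gata1-2, against 23% and 24.7% of all tested genes. These counts include MpCHLI1/2-like, MpCHLD and MpGUN4, given above, and so are not separate from their result. Of the other genes, MpGUN5 and MpHY1 were called lower in both mutants, MpFC2 in Mpb-gata1-2 only and MpHY2 in neither. The count of 6 includes MpFC2, whose call was lost in 14 of 21 alternatives, which leaves 5. The count of 5 in Mpb-gata1-1 includes MpGUN5, whose call there was lost in 6 of 21 alternatives. None of the 7 was called higher (23% and 21.7% of all tested genes were), also at an unadjusted p under 0.05. The lists of the common steps before protoporphyrin IX and of chlorophyll breakdown matched no symbol, so those genes were not analysed here. The median log2 change over the chlorophyll branch (MpCHLI1/2-like, MpCHLD and MpGUN5) was -0.36 in Mpb-gata1-1 and -0.44 in Mpb-gata1-2. Over the iron branch (MpFC2, MpHY1 and MpHY2) it was -0.06 and -0.21, which are the values of MpHY2. In that branch MpHY1 had -0.52 and -0.55, and MpFC2 0.08 and -0.18. The medians of all tested genes given above were 0.00 and -0.02.

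MpFC2 (Mp7g00290), named for ferrochelatase, did not follow the 3 genes in Mpb-gata1-1. Its level was 205, 213 and 209.7 CPM in Mpb-gata1-1 libraries and 175, 173 and 174 CPM in Mpb-gata1-2, against 215, 201 and 179 CPM in BoGa. The Mpb-gata1-1 libraries lay within the BoGa range, and the Mpb-gata1-2 libraries just below it. The log2 change was 0.08 in Mpb-gata1-1 (95% interval -0.07 to 0.22; edgeR adjusted p = 0.347) and -0.18 in Mpb-gata1-2 (-0.33 to -0.04; adjusted p = 0.0393). Mpb-gata1-2 minus Mpb-gata1-1 was -0.26 ± 0.065 (SE; adjusted p = 0.0115). The call in Mpb-gata1-2 was lost in 7 of the 9 fits that left out a library (adjusted p = 0.0502 to 0.148), and remained without BoGa replicate 3 and without Mpb-gata1-1 replicate 1.

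MpHY1 (Mp6g10740), named for the haem oxygenase that opens the haem ring, was lower in both mutants. Its level was 138, 124 and 127 CPM in Mpb-gata1-1 libraries and 134, 122 and 125 CPM in Mpb-gata1-2, against 196, 203 and 159 CPM in BoGa. All mutant libraries lay below all BoGa libraries, the mutants overlapped each other, and BoGa replicate 3 was the lowest of its group. The log2 change was -0.52 ± 0.087 in Mpb-gata1-1 (SE; edgeR adjusted p = 0.000856) and -0.55 ± 0.087 in Mpb-gata1-2 (adjusted p = 0.000554). MpHY2 (Mp2g08170), named for the phytochromobilin synthase of Arabidopsis, had 8.65 to 11.7 CPM in Mpb-gata1-1 libraries and 8.16 to 9.98 CPM in Mpb-gata1-2, against 9.38 to 11.3 CPM in BoGa. These ranges overlapped, and its log2 changes of -0.06 (adjusted p = 0.741) and -0.21 (adjusted p = 0.193) did not pass.

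**Figure D3:**
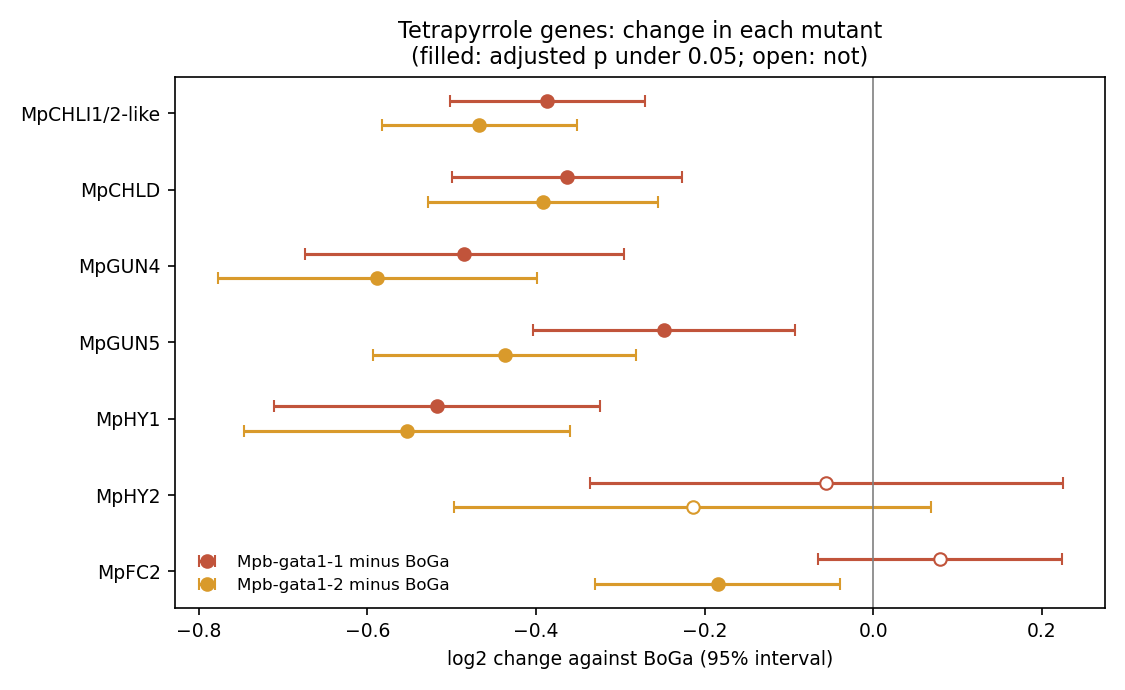
Log2 change of the 7 tetrapyrrole genes in Mpb-gata1-1 and Mpb-gata1-2 against BoGa, with 95% intervals; filled points have an edgeR adjusted p under 0.05 and open points do not. MpCHLI1/2-like, MpCHLD, MpGUN4, MpGUN5 and MpHY1 lie below 0 in both mutants, and MpHY2 has intervals that span 0. MpFC2 has an interval that spans 0 in Mpb-gata1-1 and lies below 0 in Mpb-gata1-2.

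Magnesium chelatase and ferrochelatase use the same porphyrin, so the reads of each gene were also set against those of MpFC2 within a library. This ratio was chosen after the levels had been seen and is given with no test. MpCHLI1/2-like had 1.41 to 1.54 reads per MpFC2 read in Mpb-gata1-1 libraries and 1.65 to 1.73 in Mpb-gata1-2, against 1.83 to 2.36 in BoGa. MpGUN4 had 0.411 to 0.511 and 0.453 to 0.543 reads per MpFC2 read in the mutants, in the same order, against 0.590 to 0.702 in BoGa. MpGUN5 had 1.33 to 1.45 and 1.38 to 1.53, against 1.72 to 1.78 in BoGa. For these genes every mutant library lay below every BoGa library. By level alone this held for 16.3% of all tested genes, and the share for ratios to MpFC2 was not computed. MpCHLD had 0.522 to 0.543 reads per MpFC2 read in Mpb-gata1-1 libraries and 0.603 to 0.645 in Mpb-gata1-2, against 0.615 to 0.870 in BoGa, so that Mpb-gata1-2 overlapped BoGa.

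**Figure D4:**
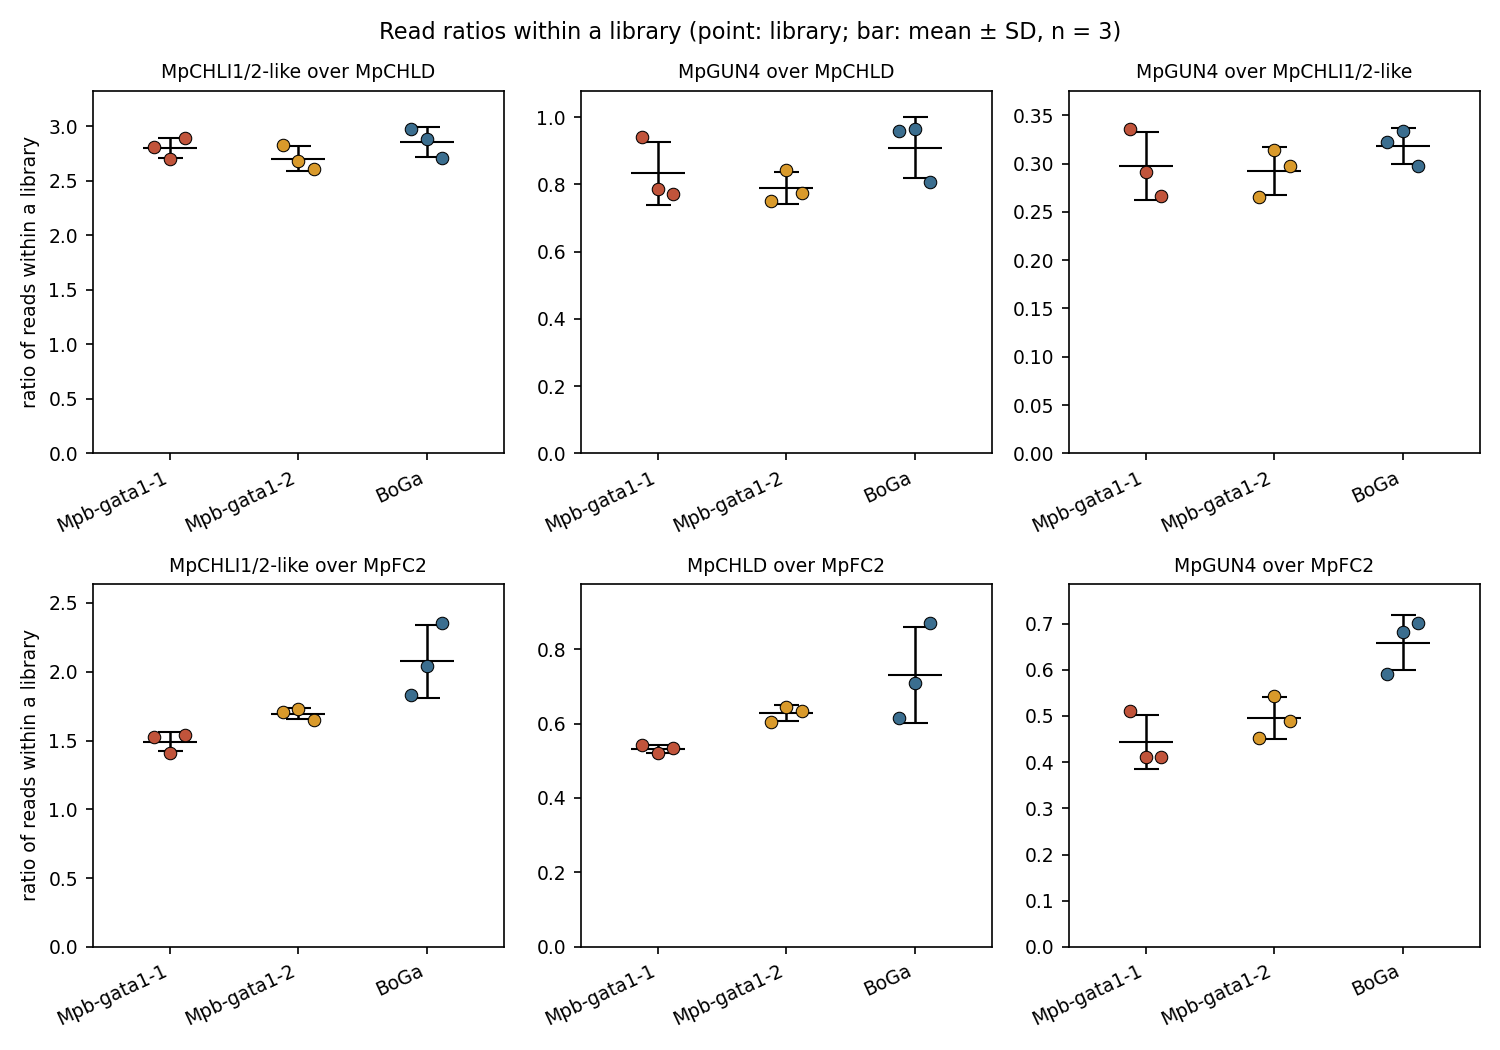
Read ratios within a library for the pairs among MpCHLI1/2-like, MpCHLD and MpGUN4 (upper row) and for each of them over MpFC2 (lower row), on linear axes from 0. Points are libraries of Mpb-gata1-1, Mpb-gata1-2 and BoGa and bars are means ± SD (n = 3); the groups overlap in the upper row, and in the lower row the mutants lie below BoGa except for MpCHLD in Mpb-gata1-2.

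Of the 18 nearest genes, 3 on each side of each gene, 13 were tested. Of these, 4 were called lower (30.8%, against 26.1% of all tested genes) and 2 higher in the mean of both mutants. MpGUN4 abuts Mp6g06750, which lies on the minus strand at 7376473 to 7379451, so that the 2 genes meet at their 3′ ends. Mp6g06750 had log2 changes of 0.33 in Mpb-gata1-1 (edgeR adjusted p = 0.0183) and -0.15 in Mpb-gata1-2 (adjusted p = 0.241), unlike MpGUN4. All reads of the 3 genes were unique to them, and none overlaps another gene in the tables.

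The genes with a symbol whose profile over the 9 libraries was most like the mean profile of the 3 were MpGH16.15, MpTRIHELIX15, MpMDS, MpABCB3 and MpGEBP1. Likeness was the root mean square difference of centred log2 CPM, which was 0.0507 for MpGH16.15, of a glycoside hydrolase family, 0.0542 for MpTRIHELIX15, of the trihelix transcription factors, 0.0559 for MpMDS, 0.0597 for MpABCB3, of the ABC transporters, and 0.0630 for MpGEBP1. The median was 0.281 over all tested genes with a mean log2 CPM of at least 1, with or without a symbol. The 2342 candidates were those with a symbol, without the 3 genes themselves. MpTRIHELIX15 stood at 46.3 ± 1.21 and 44.2 ± 1.35 CPM in Mpb-gata1-1 and Mpb-gata1-2, against 62.1 ± 2.54 CPM in BoGa (SD, n = 3).

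Other plastid and light genes showed no common direction in the mean of both mutants, where 26.1% of all tested genes were called lower and 22.7% higher. Of 11 light signalling genes, 5 were called lower and 1 higher. MpRUP, named for a repressor of the UV-B receptor, had a log2 change of -0.45 (edgeR adjusted p = 0.00048), MpCOP1, a ubiquitin ligase that represses light responses in Arabidopsis, -0.35 (adjusted p = 0.00696), and MpFHY1, named for a factor of phytochrome import, 0.39 (adjusted p = 0.00109). Only 47.2% of the reads of MpFHY1 were unique to it, and it overlaps Mp2g16490. The call of MpCOP1 was lost with limma on log2(TPM + 1) (adjusted p = 0.0731), and the count of 5 was 2 without BoGa replicate 1 or BoGa replicate 2.

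Of 3 sigma factor genes of plastid transcription, 1 was called lower. MpSIG5 had a log2 change of -0.63 (edgeR adjusted p = 0.0078), MpSIG1 0.12 (adjusted p = 0.126) and MpSIG2 -0.06 (adjusted p = 0.361). By mutant, MpSIG5 had -0.42 in Mpb-gata1-1, which did not pass (adjusted p = 0.0883; libraries overlapping BoGa; -0.63 and 0.000828 without BoGa replicate 3), and -0.84 in Mpb-gata1-2 (adjusted p = 0.00459). None of the 3 was called lower in Mpb-gata1-1 with edgeR, DESeq2 or limma (1 at an unadjusted p under 0.05 in edgeR, MpSIG5). In Mpb-gata1-2 2 were called lower, MpSIG5 and MpSIG2 (-0.19, adjusted p = 0.0185), the second of which was lost without replicate 2 of BoGa (0.0628) or replicate 2 (0.0688) or 3 (0.0576) of Mpb-gata1-2. Of 8 photosynthesis and photoprotection genes, 2 were called lower and 2 higher. MpPTOXb, named for the plastid terminal oxidase, had -0.47 (adjusted p = 0.00934), MpABA4, named for a gene of neoxanthin synthesis, -0.22 (adjusted p = 0.0288), and MpLCY-like1 0.17 (adjusted p = 0.029). The call of MpPTOXb was lost with limma on log2(TPM + 1) (adjusted p = 0.0607), that of MpLCY-like1 without 5 of the 9 libraries (replicates 1 and 2 of BoGa, 3 of Mpb-gata1-1, and 2 and 3 of Mpb-gata1-2), and that of MpABA4 without 4 (replicates 1 of BoGa, 2 of Mpb-gata1-1, and 1 and 3 of Mpb-gata1-2). The count of 2 lower genes was 1 without replicate 2 of Mpb-gata1-1, or without replicate 1 or 3 of Mpb-gata1-2.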

How the data were processed

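Libraries were made with a stranded mRNA kit from total RNA, per the labels' protocols. Each library has a table of genes with total and unique gene reads, which are raw counts in the deposited files, and with TPM and RPKM, normalized by the authors, per the file headers. The aligner, the genome build and the use of strand in counting were not given in the sources used here. Symbols were matched by locus number to the RefSeq gene table of MpTak2_v7.1. Of 20574 genes, 17641 (85.7%) matched and 3091 had a symbol; positions are those of the deposited tables.

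Total gene reads were fitted with edgeR 4.0.16 (R 4.3.3), with TMM scaling, filterByExpr by group (14667 genes tested, 5907 not), robust quasi-likelihood fits of all 9 libraries with group terms only, and Benjamini-Hochberg adjustment over all tested genes at 0.05. Groups come from the labels, and the samples were not treated as paired by replicate number. Pairs of replicates differed by more than sampling noise (chi-square per degree of freedom 8.23 to 42.9). On simulated data of 14539 genes, the comparison of the mean of both mutants recovered 89.7% of 2-fold changes, and 5.41% of calls were false. The p-values measure the spread between pools of plants.

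The genes, lists and comparisons were chosen with earlier results of these data known. Genes to name were the 3 genes, all tested tetrapyrrole genes, up to 3 of each other list in order of p, and the 5 most alike in profile. Alternatives were RLE and upper-quartile factors, no filter and a stricter one, unique reads, a replicate block, only the groups compared, the V level as a covariate, DESeq2 1.42.0, limma 3.58.1 on log2 of TPM plus 1 or 0.1 and of RPKM plus 1, and leaving out each library. Sequences were not analysed here.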

Additional observations from a re-analysis of the deposited data

Results flagged for a closer look

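None of MpCHLI1/2-like, MpCHLD and MpGUN4 met a criterion for a closer look. For 4 other named genes the change against BoGa differed between the mutants, tested as Mpb-gata1-2 minus Mpb-gata1-1 in the same edgeR fit, where 30.9% of all tested genes were called. MpFC2 had a log2 difference of -0.26 (adjusted p = 0.0115). MpSIG2 had a log2 difference of -0.27 (adjusted p = 0.00511), with means of 202 ± 6.08 CPM for Mpb-gata1-2 and 244 ± 14.7 CPM for Mpb-gata1-1 (SD, n = 3). MpABA4 had a log2 difference of 0.38 (adjusted p = 0.00778), with 49.3 ± 3.57 CPM for Mpb-gata1-2 and 38.0 ± 2.34 CPM for Mpb-gata1-1; it overlaps Mp5g19500, and 95.6% of its reads were unique to it. MpGATA4 had a log2 difference of 0.17 (adjusted p = 0.0182), and this call was lost without replicate 2 of Mpb-gata1-1 (0.0573), or without replicate 2 (0.0502) or 3 (0.0696) of Mpb-gata1-2. For each of these genes, which were picked by this call, the libraries of the mutants did not overlap. Mpb-gata1-2 lay below Mpb-gata1-1 without overlap for 25.2% of all tested genes, and the share for the higher direction is not given here. The mutants also differ in V level, whose part was not tested.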

How the results depend on the processing

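For MpCHLI1/2-like, MpCHLD and MpGUN4, the 12 results of the comparisons kept their direction and their side of the threshold under all 21 alternatives run for each. The log2 change of the mean of both mutants ranged from -0.45 to -0.33 for MpCHLI1/2-like, from -0.43 to -0.28 for MpCHLD and from -0.58 to -0.44 for MpGUN4, and the highest adjusted p of a mutant against BoGa was 0.00767 (MpGUN4 in Mpb-gata1-1). With the replicate number as a block the mean changes were -0.43, -0.38 and -0.54, with adjusted p = 0.00026, 0.00059 and 0.000595 in edgeR. Correlations of same-numbered samples were -0.116 to 0.161. With 3 libraries per group such values cannot decide whether a replicate number pairs the samples. The block ended the MpFC2 call in Mpb-gata1-2 (adjusted p = 0.0632). The ratios between the 3 genes stayed unresolved for both mutants together and for each alone, where 3 against 3 libraries cannot go below 0.1. The V level was used as a covariate only for the mean of both mutants, and the fit of only the groups compared was run for the other comparisons.

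Genes called lower in the mean of both mutants numbered 3824 with edgeR and 2545 with limma on log2(TPM + 1). In that comparison the light signalling genes called lower numbered 3 with limma on RPKM, 1 with each limma fit on TPM, and 2 to 6 when a library was left out. Photosynthesis genes called lower numbered 1 with limma on RPKM, 0 with each limma fit on TPM (1 at an unadjusted p under 0.05; 2 with DESeq2), and 1 to 3 when a library was left out. Plastid transcription genes called lower numbered 0 with limma on log2(TPM + 1) without a filter (1 unadjusted; 1 with DESeq2). Tetrapyrrole genes lower in Mpb-gata1-2 than in Mpb-gata1-1 numbered 2 with only the groups compared or upper-quartile factors, and 1 to 2 when a library was left out. In each case the cause was not tested. Limma on log2(TPM + 1) also gave other medians over all tested genes. The median log2 change was 0.069 in the mean of both mutants, 0.085 in Mpb-gata1-1 and 0.064 in Mpb-gata1-2. With edgeR these medians were -0.018, 0.0027 and -0.019.

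Some log2 values near 0 changed sign, none of them called. MpABA4 in Mpb-gata1-2 was 0.0056 with limma on RPKM, 0.059 and 0.058 on TPM plus 0.1 and 1, and -0.10 to 0.06 when a library was left out (0.057 without BoGa replicate 1). MpFC2 in the mean of both mutants was 0.044 with each limma fit on TPM, and -0.12 to 0.01 when a library was left out (0.0096 without BoGa replicate 1). At the low end of that range, without BoGa replicate 3, MpFC2 was called lower (-0.12, edgeR adjusted p = 0.0436). MpHY2 in Mpb-gata1-1 was 0.036 and 0.033 on TPM plus 0.1 and 1, and -0.16 to 0.05 when a library was left out (0.048 without Mpb-gata1-1 replicate 2). MpSIG2 in the mean was 0.035 and 0.034 on TPM plus 0.1 and 1. MpGH16.15 in Mpb-gata1-2 minus Mpb-gata1-1 was -0.040 to 0.012 when a library was left out (0.012 without Mpb-gata1-1 replicate 3 and 0.0041 without Mpb-gata1-2 replicate 3). Depth did not limit the 3 genes, which had 2121 to 15385 reads in a library; 3 libraries per group limit the precision.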
